A study of Homo sapiens with 9 samples.

Results

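The genes described here are 10 members of the interleukin 6 cytokine family and its signalling chain, out of 18293 genes that were counted in both deposited tables. They were taken by symbol: the cytokines LIF, IL6, IL11 and CLCF1, the receptor chains IL6ST, LIFR and OSMR, the kinase JAK1, the transcription factor STAT3 and the feedback inhibitor SOCS3. The set was chosen by the read counts of LIF, already known to be higher with AMI-1 than in control cells, and its relatives were added by name. For these 10 genes all values of AMI-1 against control are therefore given as descriptions with no p-value. LIF has none in any comparison, since its AMI-1 and control counts both served to choose it. All 10 genes were in both tables, and all 10 were among the 18284 genes tested.

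The cells were HMEC-1, an immortalised endothelial line from the small vessels of human skin, whose poly-A RNA was sequenced in 9 libraries of 3 groups. The first group received AMI-1 at 100 µM for 16 h, the second received AMI-5 at 100 µM for 16 h, and the control group received the solvent DMSO alone, with 3 libraries in each. Every group was grown at 5.5 mM glucose. AMI-1, a urea that joins a pair of hydroxynaphthalene sulfonic acid groups, and AMI-5, a tetrabrominated xanthene dye, were used by the study as inhibitors of methyltransferases. A single cell line was used. No label says whether replicates were grown as separate cultures, and p-values then measure only how these libraries spread.

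Cytokines of the interleukin 6 family share the signalling chain gp130, the product of IL6ST. LIF brings gp130 together with LIFR, oncostatin M can use OSMR, and interleukin 6 and interleukin 11 first bind receptor chains of their own. The assembled receptor activates JAK kinases, these phosphorylate STAT3, and STAT3 turns on target genes that include SOCS3, which binds the receptor complex and shuts the signal down. In endothelium the family is known for its part in inflammatory and growth responses. Messenger RNA levels do not measure the phosphorylation that carries the signal.

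Counts of tested genes ran from 14560581 to 24691347 per library with AMI-1, from 14451282 to 23139954 with AMI-5 and from 15544127 to 23399883 in control. Levels are read counts scaled to library size (CPM) after TMM scaling. Of 12 endothelial markers, 11 were in both tables, and their summed level was 982 to 1278 CPM with AMI-1, 747 to 1052 CPM with AMI-5 and 906 to 1336 CPM in control, while PECAM1 was not among the genes tested. Of 10 genes listed for mural cells and fibroblasts, 9 were in both tables. Their sum was 3489 to 4587 CPM with AMI-1, 2797 to 3660 CPM with AMI-5 and 3357 to 4933 CPM in control. Most of it was COL1A1, which averaged 3272 CPM with AMI-1, 2678 CPM with AMI-5 and 3363 CPM in control. In control TAGLN averaged 405 and COL1A2 204 CPM, whereas PDGFRA averaged 1.12, RGS5 2.49 and ACTA2 8.84 CPM. Among 6 epithelial markers KRT8 and KRT18 were tested, and averaged 67.2 and 275 CPM in control. Of 7 leukocyte markers only CD14 was in both tables, at 1.57 to 2.91 CPM over the 9 libraries. Fewer cells of a type and less RNA per cell cannot be told apart in such libraries.

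Libraries with the same replicate number deviated together. Across genes, the correlation of their deviations from the group means was between 0.431 and 0.871 for the 9 pairs that share a number, against -0.804 to 0.204 for the 18 pairs that do not. Deviations cancel within a group, so the negative values for pairs of different number follow in part from the calculation. Changes are read within replicate numbers, by which the libraries are paired. They come from a single edgeR quasi-likelihood fit of the 9 libraries with replicate number as a block. A gene is called in this test at an adjusted p under 0.05 over all genes tested. Without the block that test called 0 genes in each comparison. Of 18284 genes tested, the unblocked fit had 188 at an unadjusted p under 0.05 for AMI-1 against control. It had 494 for AMI-5 against control and 483 for AMI-5 against AMI-1. Each count is below a share of 0.05, which evenly spread p-values with no differences would give. DESeq2 with the block called 79, 1359 and 695 genes in the same order of comparisons.

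In control cells the shared chain IL6ST, the chain OSMR, the kinase JAK1 and STAT3 were the most abundant members per length, and the cytokines were lower. Per kilobase of transcript, control libraries held 59.2 ± 4.93 CPM of JAK1, 37.5 ± 12.03 of IL6ST, 30.1 ± 2.50 of STAT3 and 24.1 ± 1.20 of OSMR (SD, n = 3). The next group was CLCF1 at 6.62 ± 0.853, SOCS3 at 5.41 ± 1.20, IL11 at 5.10 ± 0.861 and LIFR at 5.04 ± 1.53 CPM per kilobase, again with SD and n = 3. LIF, at 3.13 ± 0.494, and IL6, at 1.66 ± 0.653 CPM per kilobase, were lowest. The ranges of IL6ST and STAT3 overlapped, as did those of CLCF1, SOCS3, IL11 and LIFR with one another, so those orders are not resolved, whereas the other neighbours in the order did not overlap in these control libraries. LIFR, the chain that LIF binds, stood well below the shared chain IL6ST in every control library: its highest value was 6.79 and the lowest of IL6ST was 28.3 CPM per kilobase.

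**Figure D1:**
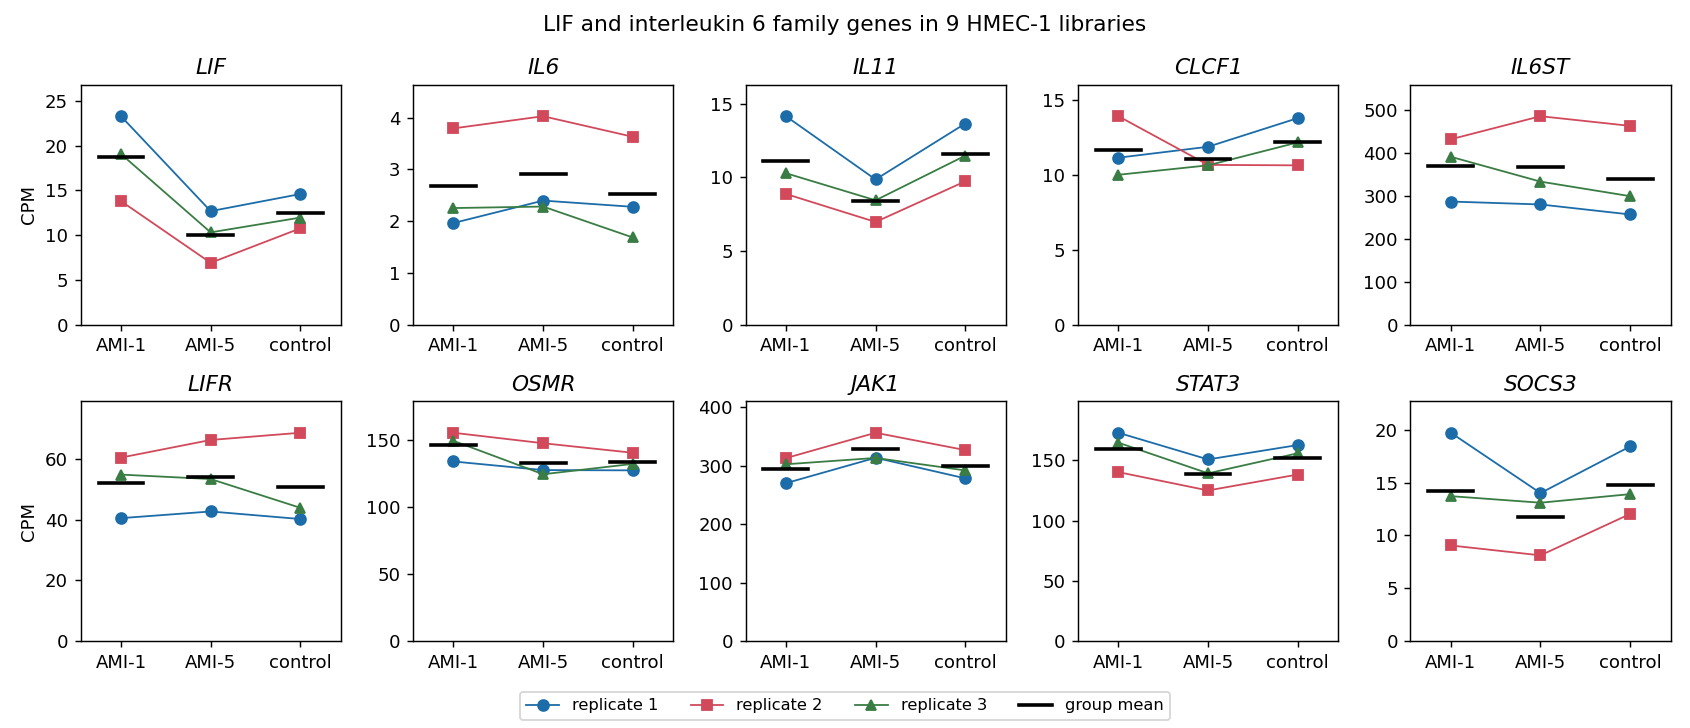
Level of each of the 10 genes (CPM, linear axis from 0) in the AMI-1, AMI-5 and control groups, with a marker for each library, a line joining libraries of the same replicate number and a bar at the group mean. LIF reached 13.8 to 23.3 CPM with AMI-1 against 6.91 to 12.7 CPM with AMI-5, and the lines of IL11 dip at AMI-5 in each replicate number.

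Among the cytokines other than LIF, IL11 was the one that passed a test. The difference between the compounds was largest in LIF, which is a description, since its AMI-1 and control counts served to choose it. LIF, leukaemia inhibitory factor, lies on chromosome 22 and encodes a secreted cytokine that signals through LIFR and gp130. Replicates 1, 2 and 3 held 23.3, 13.8 and 19.1 CPM with AMI-1, 12.7, 6.91 and 10.3 CPM with AMI-5, and 14.6, 10.8 and 11.96 CPM in control, on 103 to 474 reads per library. AMI-1 was highest and AMI-5 lowest in every replicate number. The AMI-1 and AMI-5 values did not overlap, whereas each compound's range overlapped that of control, and replicate 2 was low in every group.

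Against control, LIF with AMI-1 differed by 0.58 ± 0.10 on the log2 scale (SE, 95% interval 0.38 to 0.78), with 0.67, 0.36 and 0.67 in replicates 1, 2 and 3, which is 1.50-fold. Leaving out a library gave 0.52 to 0.69. Without the replicate block the estimate was 0.59 with a wider SE of 0.26. Against the same control libraries, LIF with AMI-5 differed by -0.32 ± 0.10 (interval -0.54 to -0.11), with -0.20, -0.64 and -0.21 in the replicate numbers. That estimate was -0.38 to -0.22 when a library was left out and -0.20 without replicate 2. Since AMI-1 and AMI-5 were set against shared controls, low control values would raise both estimates. Set directly against each other, LIF with AMI-5 stood at 0.535 times its level with AMI-1, a log2 difference of -0.90 ± 0.10 (interval -1.11 to -0.70), and the 3 replicate numbers gave -0.88, -0.998 and -0.89. The within-replicate differences of AMI-5 against AMI-1 were closer to each other than those of either compound against control. Without the replicate block, LIF with AMI-5 stood at -0.31 ± 0.26 against control and at -0.90 ± 0.26 against AMI-1 (SE).

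IL11, on chromosome 19, encodes interleukin 11, a cytokine linked to fibrosis and to bone and blood cell growth, which also signals through gp130. It held 14.2, 8.88 and 10.3 CPM with AMI-1, 9.86, 6.98 and 8.45 CPM with AMI-5, and 13.7, 9.74 and 11.5 CPM in control. AMI-5 was lowest in every replicate number although the 3 groups overlapped. Within replicate numbers, AMI-5 against control gave -0.47, -0.48 and -0.44 on the log2 scale.

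IL11 fell with AMI-5 by 0.47 ± 0.10 on the log2 scale against control (95% interval -0.68 to -0.26, edgeR adjusted p = 0.00881), to 0.724 of the control level. It also fell with AMI-5 against AMI-1, by 0.39 ± 0.10 (interval -0.60 to -0.17, adjusted p = 0.0338). With AMI-1 against control its log2 difference was -0.08 ± 0.10 (interval -0.29 to 0.12). Without the replicate block the AMI-5 estimates were -0.46 and -0.39 with adjusted p = 0.9999 against control and adjusted p = 1 against AMI-1. The call against control was also lost when control replicate 1, control replicate 3, AMI-5 replicate 1 or AMI-5 replicate 2 was left out, with adjusted p = 0.0576, 0.0945, 0.0967 and 0.0555 in that order and log2 estimates of -0.49 to -0.43. In the comparison with AMI-1 the call was lost in 6 of 9 such fits, where AMI-5 replicate 1 or 2, AMI-1 replicate 1 or 2, or control replicate 1 or 3 was missing (highest adjusted p = 0.286), with DESeq2 (adjusted p = 0.105) and in a fit of the 2 compounds alone (adjusted p = 0.0681). With all libraries of replicate 1 left out, both calls were lost (adjusted p = 0.223 against control and 0.505 against AMI-1).

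Inducible cytokine promoters are usually read through motifs of AP-1, nuclear factor kappa B and STAT. The promoters of the cytokines with a RefSeq entry, IL11 and IL6, are shown as background. Each is the 250 bases before the start of the RefSeq gene on the GRCh38.p14 assembly, 5′ to 3′, and capitals mark the motif that was matched. The IL11 window is chr19:55370464-55370713 on the minus strand, and the IL6 window is chr7:22726950-22727199 on the plus strand.
IL11: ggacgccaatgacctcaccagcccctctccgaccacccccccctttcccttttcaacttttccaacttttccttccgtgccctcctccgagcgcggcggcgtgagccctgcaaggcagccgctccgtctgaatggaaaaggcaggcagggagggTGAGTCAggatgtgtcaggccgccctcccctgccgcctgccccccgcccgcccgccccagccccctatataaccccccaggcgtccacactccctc
IL6: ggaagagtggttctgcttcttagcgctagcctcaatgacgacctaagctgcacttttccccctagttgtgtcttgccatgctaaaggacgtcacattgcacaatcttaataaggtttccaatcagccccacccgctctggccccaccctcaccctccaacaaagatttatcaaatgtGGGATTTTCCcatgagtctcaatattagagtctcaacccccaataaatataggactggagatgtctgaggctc

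The IL11 window held 1 match to the AP-1 letters TGANTCA, starting 96 bases before the gene start, and the IL6 window held 1 match to the nuclear factor kappa B motif, starting 73 bases before it. Both strands were searched, and matches of different motifs were counted separately even where they overlap. Of 35116 RefSeq windows of this length, 6.57% held the AP-1 letters, 6.57% the STAT letters TTCNNNGAA and 9.96% the kappa B motif. Of the 10 members 8 had an entry, with 13 windows in all, and LIF and CLCF1 are named only. IL6ST held 1 kappa B match, and 2 of 3 LIFR windows held the STAT letters. No window of OSMR, JAK1, STAT3 or SOCS3 held any of these motifs. A match describes the letters in the window and not a bound site, and bases beyond the window were not searched. Whether the motifs bear on the levels of IL11 or IL6 was not tested.

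IL6, on chromosome 7, encodes interleukin 6 and was the rarest member, on 28 to 67 reads per library. It held 1.96, 3.79 and 2.25 CPM with AMI-1, 2.40, 4.03 and 2.28 CPM with AMI-5, and 2.28, 3.63 and 1.68 CPM in control. Replicate 2 was highest in each group, and the groups overlapped throughout. The log2 difference was 0.12 ± 0.18 with AMI-1 and 0.22 ± 0.17 with AMI-5 against control (adjusted p = 0.425), and 0.11 ± 0.17 for AMI-5 against AMI-1 (adjusted p = 0.779). The last interval, -0.25 to 0.46, is wide at this depth, so a moderate difference in either direction was not detectable. IL6 overlaps STEAP1B on the other strand, which averaged 357 reads with AMI-1, 374 with AMI-5 and 389 in control, far more than IL6 itself.

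CLCF1, cardiotrophin-like cytokine factor 1, lies on chromosome 11 and signals through the ciliary neurotrophic factor receptor with LIFR and gp130. It averaged 11.7 ± 2.01 CPM with AMI-1, 11.1 ± 0.709 CPM with AMI-5 and 12.2 ± 1.57 CPM in control (SD, n = 3 each). Its replicate numbers moved in opposite directions with AMI-1, at -0.31, 0.39 and -0.28. With AMI-5 the log2 difference was -0.14 ± 0.12 against control (adjusted p = 0.480) and -0.07 ± 0.12 against AMI-1 (adjusted p = 0.797). CLCF1 overlaps RAD9A, which averaged 788 reads with AMI-1, 783 with AMI-5 and 841 in control, and lies on the other strand. CLCF1 also overlaps AP003419.1, a protein-coding gene on its own strand. The strand of counting is unknown, and whole gene spans were compared, not exons. Whether IL6 and CLCF1 share reads with these neighbours therefore cannot be told. The same holds for IL6ST and AC008914.1, LIFR and LIFR-AS1, OSMR and RICTOR, and JAK1 and RAVER2. LIF overlaps the antisense genes LIF-AS1 and AC004264.1, which were not among the genes counted. The annotation places no gene over IL11, STAT3 or SOCS3.

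The receptor chains, all on chromosome 5, did not pass the test in any comparison in which one was made. IL6ST encodes gp130, the chain shared by the whole family, and held 287, 432 and 391 CPM with AMI-1, 280.0, 486 and 333 CPM with AMI-5, and 257, 463 and 299 CPM in control. Its replicate 2 libraries were the highest of each group and replicate 1 the lowest, so that the groups overlapped almost fully. The log2 difference was 0.15 ± 0.07 with AMI-1 (interval 0.00 to 0.30), 0.12 ± 0.07 with AMI-5 against control (adjusted p = 0.303) and -0.04 ± 0.07 for AMI-5 against AMI-1 (interval -0.18 to 0.11, adjusted p = 0.825).

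LIFR, the receptor chain of LIF itself, averaged 51.9 ± 10.3 CPM with AMI-1, 54.0 ± 11.8 CPM with AMI-5 and 50.9 ± 15.4 CPM in control (SD, n = 3 each). It differed by 0.05 ± 0.08 on the log2 scale with AMI-1 and by 0.10 ± 0.08 with AMI-5 against control (adjusted p = 0.424), and a correction for GC content turned both signs, to -0.03 and -0.04. Beside its cytokine, which stood at 0.58 with AMI-1, the receptor chain thus stood at 0.05.

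OSMR, the oncostatin M receptor chain, held 134, 155 and 149 CPM with AMI-1, 128, 148 and 124 CPM with AMI-5, and 127, 140.4 and 132 CPM in control. AMI-1 was the highest of the groups in each replicate number. The log2 difference was 0.13 ± 0.06 with AMI-1 (interval 0.01 to 0.25) and 0.00 ± 0.06 with AMI-5 against control (adjusted p = 0.971). AMI-5 against AMI-1 gave -0.14 ± 0.06 (interval -0.26 to -0.02, adjusted p = 0.180), and the adjusted p was 0.00707 with the GC correction.

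Downstream of the receptors, STAT3 passed the test between the compounds, and JAK1 and SOCS3 did not pass it. STAT3, the main transcription factor activated by the family, lies on chromosome 17 and held 173, 140.1 and 165 CPM with AMI-1, 151, 125 and 139 CPM with AMI-5, and 163, 138 and 156 CPM in control. In every replicate number AMI-1 was highest and AMI-5 lowest, the same order as for LIF. The groups overlapped, and replicate 2 was low in all 3.

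STAT3 fell by 0.20 ± 0.05 on the log2 scale with AMI-5 against AMI-1 (interval -0.31 to -0.09, adjusted p = 0.0324), to 0.869 of its AMI-1 level, with -0.20, -0.17 and -0.24 in the replicate numbers. Against control, AMI-5 gave -0.14 ± 0.05 (interval -0.25 to -0.03, adjusted p = 0.0948) and AMI-1 gave 0.06 ± 0.05. Without the block the difference between the compounds was -0.20 with adjusted p = 1. The call was lost in 6 of the 9 fits that left out a library, those without control replicate 1 or 3, AMI-1 replicate 1, or any AMI-5 library (highest adjusted p = 0.237), and in a fit of the 2 compounds alone (adjusted p = 0.137). It was lost too without replicate number 1 (adjusted p = 0.430) or 2 (adjusted p = 0.126).

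JAK1, on chromosome 1, encodes the kinase that gp130 receptors depend on. It held 269.9, 313 and 302 CPM with AMI-1, 313, 356 and 313 CPM with AMI-5, and 278, 326 and 292 CPM in control. Every AMI-5 value was above every AMI-1 value, by a narrow gap. The log2 difference of AMI-5 was 0.15 ± 0.05 against AMI-1 (interval 0.04 to 0.26, adjusted p = 0.107) and 0.13 ± 0.05 against control (interval 0.02 to 0.24, adjusted p = 0.105), neither past the threshold. With the GC correction both passed it (adjusted p = 0.0102 and 0.0253), as they did without AMI-1 replicate 3 (adjusted p = 0.00499 and 0.0151).

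SOCS3, also on chromosome 17, encodes the STAT3-induced inhibitor that binds gp130 and JAK kinases. It held 19.7, 9.05 and 13.7 CPM with AMI-1, 14.0, 8.12 and 13.1 CPM with AMI-5, and 18.4, 12.03 and 13.9 CPM in control. AMI-5 was lowest in every replicate number, by little in replicate 3. The log2 difference was -0.33 ± 0.11 with AMI-5 against control (interval -0.56 to -0.10, adjusted p = 0.0649), -0.24 ± 0.11 with AMI-5 against AMI-1 (adjusted p = 0.239), and -0.09 ± 0.11 with AMI-1 against control, where replicate 1 gave 0.10 and replicate 2 gave -0.41. With the GC correction the AMI-5 estimates were -0.18 against control (adjusted p = 0.261) and -0.15 against AMI-1 (adjusted p = 0.385), and without AMI-1 replicate 1 the one against AMI-1 was -0.11. The estimate against control passed the threshold without AMI-1 replicate 2 or 3 or AMI-5 replicate 3 (lowest adjusted p = 0.0118).

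**Figure D2:**
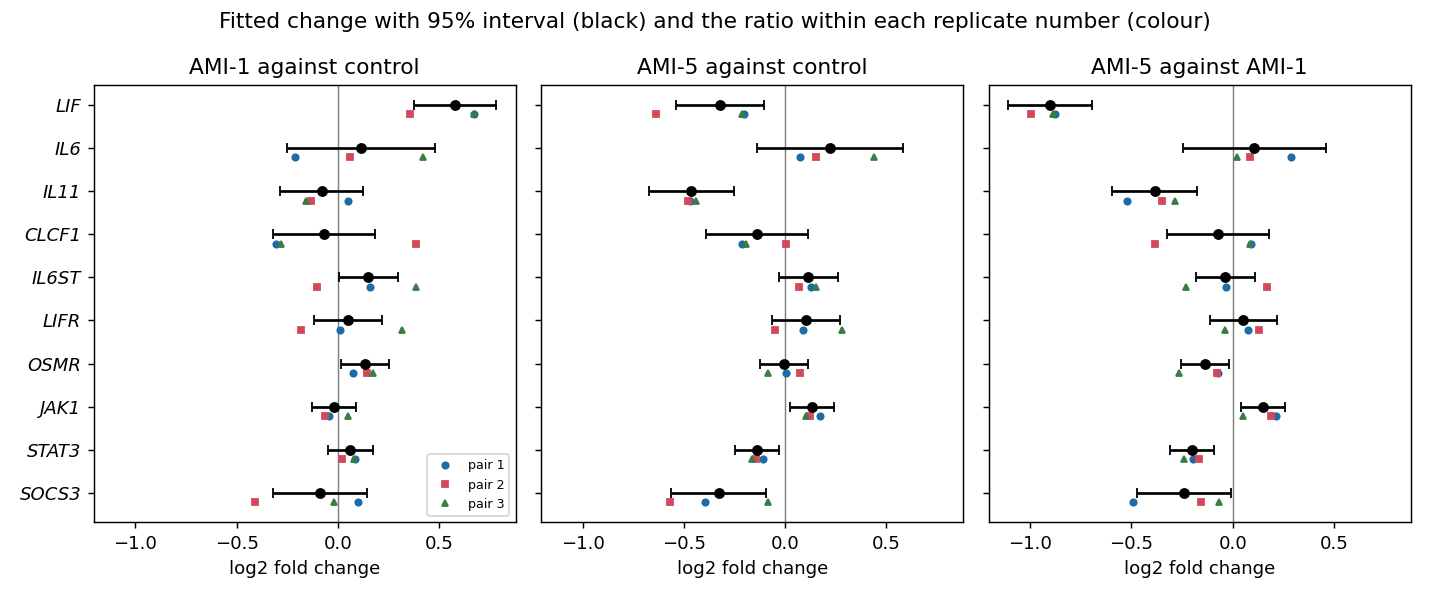
Log2 fold change of the 10 genes in each of the 3 comparisons, with the blocked edgeR estimate and its 95% interval in black and the difference within each replicate number in colour. LIF lies at 0.58 with AMI-1 against control and at -0.90 with AMI-5 against AMI-1, and IL11 lies below 0 in both AMI-5 comparisons.

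Counted over the set, AMI-1 against control called 1 member of 10 higher, LIF, and none lower. In that comparison 0.421% of genes tested were called, 0.241% higher and 0.18% lower, and nothing is read from the count because the comparison chose LIF. AMI-1 was above control in 3 of 3 replicate numbers for OSMR and STAT3, as for 14.4% of all genes, and for LIF, which is a description. It was below in 3 of 3 for no member, as for 15.7% of all genes. No member had AMI-1 and control values that did not overlap, where 4% of all genes did.

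AMI-5 against control called 1 lower, IL11, and none higher among the 9 members other than LIF, where 10.9% of all genes were called, 3.42% higher and 7.45% lower, so the count is close to that background. The background itself rests on single libraries: 1988 genes were called with all libraries, 172 without AMI-5 replicate 1, 294 without AMI-5 replicate 2, 295 without control replicate 1 and 258 without control replicate 3, against 4232 without AMI-1 replicate 3. AMI-5 was above control in 3 of 3 replicate numbers for IL6, IL6ST and JAK1, against 24.7% of all genes. It was below in 3 of 3 for IL11, STAT3 and SOCS3, against 28.8% of all genes, and for LIF, which is a description. Again 0 of 10 members had groups that did not overlap, where 7.35% of all genes did.

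AMI-5 against AMI-1 called IL11 and STAT3 lower and none higher among the 9 members other than LIF, where 5.01% of all genes were called, 1.61% higher and 3.4% lower. These were 916 genes with all libraries. Leaving out AMI-5 replicate 1 gave 195, leaving out AMI-5 replicate 2 gave 286, and leaving out AMI-1 replicate 1 gave 198, whereas 3408 were called where AMI-1 replicate 3 was missing. IL6 and JAK1 were higher in 3 of 3 replicate numbers, against 16.7% of all genes. IL11, OSMR, STAT3 and SOCS3 were lower in 3 of 3, against 18.5%. JAK1 had groups that did not overlap, where 7.49% of all genes did. LIF was also lower in 3 of 3 without overlap, which is a description, since its AMI-1 counts helped to choose it. The median log2 difference of the 10 members, LIF included, was 0.06 with AMI-1, -0.07 with AMI-5 and -0.11 for AMI-5 against AMI-1. All genes tested had medians of 0.00, -0.01 and -0.01.

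Much of the spread among libraries followed the replicate number. It held 89.2% of the sum of squares of log2 CPM for IL6, 89% for IL6ST, 88.7% for LIFR and 77.4% for SOCS3. For LIF the replicate number held 34.6% and the treatment 62.3%, a share that the choice of LIF by its AMI-1 and control counts favours. Members split by the base composition of their transcripts. LIFR and IL6ST, at 36.2% and 36.6% GC, were 0.51 and 0.59 higher on the log2 scale in replicate 2 than in the others, whereas SOCS3, LIF and IL11, at 60%, 56.9% and 55.6% GC, were lower there by -0.66, -0.54 and -0.39. CLCF1, at 57.1% GC, gave 0.01, and IL6, at 44.5%, gave 0.81.

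GC content also moved with AMI-5 over all genes: those called lower had a median of 58.7% and those called higher one of 41.5%, against 48.1% for all genes tested. In a fit with the GC correction IL11 still fell, by 0.38 with AMI-5 against control (adjusted p = 0.00807), LIF with AMI-5 stood at -0.21 and LIF with AMI-1 stood at 0.63.

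**Figure D3:**
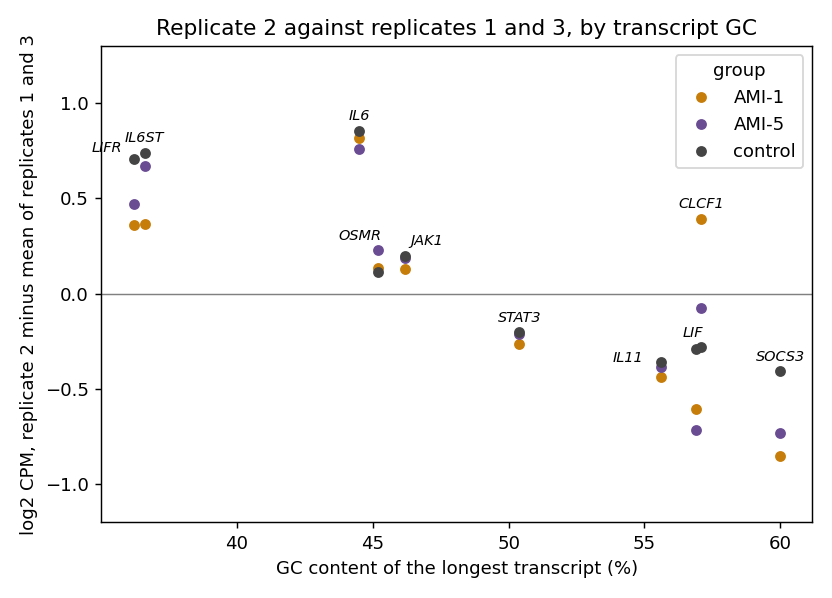
For each of the 10 genes, the log2 CPM of replicate 2 minus the mean of replicates 1 and 3 in the AMI-1, AMI-5 and control groups (vertical) against the GC content of its longest GENCODE transcript in percent (horizontal). Genes of low GC content lie above 0 and most of those of high GC content below 0 in all 3 groups, with CLCF1 in the AMI-1 group the exception.

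Other genes of the pathway were described from lists of symbols, by counts and medians. These lists were chosen with earlier results of these data known. Their counts beside the shares of all genes are therefore descriptions. Of 6 other ligands 2 were tested, CNTF and CTF1, and neither passed the test. Of 6 other receptor chains 5 were tested, and none passed in any comparison, the private chains IL6R and IL11RA among them. In the AMI-5 comparison with control, the other transducers had 1 fall among 11 tested, where 7.45% of all genes fell: TYK2, a kinase of the JAK family. TYK2 averaged 93.8 ± 21.9 CPM with AMI-5 and 113 ± 28.4 CPM in control (SD, n = 3 each), and fell by 0.26 ± 0.07 on the log2 scale (adjusted p = 0.0266). With the GC correction its difference was -0.10 (adjusted p = 0.140), and it lost the call where AMI-1 replicate 1, AMI-5 replicate 1 or 2, or control replicate 1 or 3 was missing (highest adjusted p = 0.236). It also fell against AMI-1, by 0.31 ± 0.07 (adjusted p = 0.0177), a call lost without replicate 1 or 2 of either compound (highest adjusted p = 0.160), with estimates of -0.18 after the GC correction and -0.20 where AMI-1 replicate 2 was missing.

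Among 15 tested genes that restrain the pathway, 2 rose with AMI-5 against control, where 3.42% of all genes rose, and both are SOCS genes. SOCS1, an inhibitor of JAK kinases, averaged 2.93 ± 1.72 CPM with AMI-5 and 1.85 ± 1.08 CPM in control, and rose by 0.67 ± 0.18 (adjusted p = 0.0218). Against AMI-1, where it averaged 1.13 ± 0.624 CPM, AMI-5 was higher by 1.37 ± 0.19 (adjusted p = 0.000390), and that call was kept in all 9 fits that left out a library but not without replicate number 1 (adjusted p = 0.0619). SOCS4 rose by 0.28 ± 0.08 with AMI-5 against control (adjusted p = 0.0253), but not with the GC correction (0.12, adjusted p = 0.0810). The SOCS1 and SOCS4 calls against control were both lost without AMI-5 replicate 1 or 2 or control replicate 1 or 3, and that of SOCS1 also without AMI-5 replicate 3 (highest adjusted p = 0.261, for SOCS4). Beside SOCS1 at 0.67, SOCS3 stood at -0.33 with AMI-5 against control, and the difference between the genes was not tested.

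Of 26 genes listed as STAT3 targets 20 were tested. With AMI-5 against control 4 fell and 1 rose, where 7.45% of all genes fell and 3.42% rose, around a median of -0.10. CCND1, which encodes cyclin D1, averaged 175 ± 10.9 CPM with AMI-5 and 229 ± 17.5 CPM in control and fell by 0.39 ± 0.05 (adjusted p = 0.000357), a call kept in all 9 fits that left out a library but not without replicate number 1 (adjusted p = 0.108). BCL3, a partner of nuclear factor kappa B, averaged 15.6 ± 5.93 CPM with AMI-5 and 22.1 ± 8.12 CPM in control and fell by 0.50 ± 0.10 (adjusted p = 0.00537). BCL2L1, an inhibitor of apoptosis, fell by 0.27 ± 0.06 (adjusted p = 0.0141), and TNFRSF1A, a receptor for tumour necrosis factor, fell by 0.25 ± 0.06 (adjusted p = 0.0161). The last 3 lost their calls without AMI-5 replicate 1 or 2 or control replicate 1 or 3 (highest adjusted p = 0.156, for BCL2L1). With the GC correction BCL3 stood at -0.24, BCL2L1 at -0.16 and TNFRSF1A at -0.13, all still past the threshold. FOS, an AP-1 subunit named here after its value was seen, was the gene that rose, at 4.05 ± 2.51 CPM with AMI-5 and 1.81 ± 0.488 CPM in control (1.04 ± 0.27, adjusted p = 0.0194), and it lost the call without AMI-5 replicate 1 or 2 or control replicate 2 (highest adjusted p = 0.228), with estimates of 0.50 (where control replicate 2 was missing) to 1.34 over the fits that left out a library.

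With AMI-1 against control the same list had 1 rise, VEGFA, and 1 fall, CCND1, where 0.241% of all genes rose and 0.18% fell, around a median of 0.00. VEGFA lost its call in 6 of the 9 fits that left out a library, all but those without replicate 2 or 3 of AMI-1 or replicate 3 of AMI-5 (highest adjusted p = 0.434), with DESeq2 size factors and in a fit of AMI-1 and control alone. CCND1 lost its own without AMI-1 replicate 1 or any control library (highest adjusted p = 0.203). Between the compounds 4 targets fell with AMI-5 against AMI-1 and none rose, where 3.4% of all genes fell and 1.61% rose. VEGFA, the vascular growth factor, averaged 36.8 ± 2.46 CPM with AMI-5 and 49.2 ± 6.27 CPM with AMI-1 and fell by 0.42 ± 0.07 (adjusted p = 0.00117). IER3, an immediate early gene, averaged 58.7 ± 12.1 CPM with AMI-5 and 82.4 ± 14.3 CPM with AMI-1 and fell by 0.50 ± 0.08 (adjusted p = 0.00192). Both kept the call in all 9 fits that left out a library but not without replicate number 1 (adjusted p = 0.182 and 0.138). BCL3 fell by 0.56 ± 0.10 (adjusted p = 0.00270) and lost the call without AMI-5 replicate 1 or AMI-1 replicate 1 (highest adjusted p = 0.0727). JUNB, an AP-1 subunit, fell by 0.36 ± 0.10 (adjusted p = 0.0478) and lost it without AMI-5 replicate 1 or 2, AMI-1 replicate 1 or 2, or control replicate 1 or 3 (highest adjusted p = 0.313) and with the GC correction (-0.23, adjusted p = 0.0709), with DESeq2 and in a fit of the 2 compounds alone.

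Proteins that bind and shorten or protect cytokine messages were a further list, with 9 genes tested. With AMI-5 against control 4 fell and none rose, where 7.45% of all genes fell, around a median of -0.19. ARID5A, which stabilises the IL6 message, averaged 7.82 ± 3.15 CPM with AMI-5 and 11.2 ± 4.51 CPM in control and fell by 0.52 ± 0.11 (adjusted p = 0.00911). ZFP36L1, ZFP36L2 and KHSRP, which promote decay of AU-rich messages, fell by 0.21 ± 0.05, 0.21 ± 0.06 and 0.19 ± 0.06 (adjusted p = 0.0209, 0.0441 and 0.0435). Each of the 4 lost its call without AMI-5 replicate 1 or 2 or control replicate 1 or 3, the last 3 also without AMI-1 replicate 1 and KHSRP also without control replicate 2 (highest adjusted p = 0.337, for ZFP36L2). With the GC correction ARID5A stood at -0.32, ZFP36L2 at -0.14 and KHSRP at -0.06, the last no longer past the threshold (adjusted p = 0.359). With AMI-1 against control none of the 9 passed the test. Against AMI-1, AMI-5 had ZFP36L1 lower by -0.25 ± 0.05 (adjusted p = 0.0109), lost without either compound's replicate 1 or AMI-5 replicate 2, and ARID5A by -0.41 ± 0.12 (adjusted p = 0.0488), lost in 6 of 9 fits that left out a library, all but those without replicate 3 of either compound or control replicate 2. The ARID5A difference between the compounds also missed the threshold with the GC correction (-0.27, adjusted p = 0.0686), with DESeq2 and in a fit of the 2 compounds alone.

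Inflammatory cytokines outside the family gave a median log2 difference of 0.36 with AMI-1 and 0.06 with AMI-5 over 10 genes tested of 17 listed, with none past the threshold in either. Against AMI-1, AMI-5 had 1 fall among the 10 tested, where 3.4% of all genes fell. This was CCL2, a chemokine for monocytes, at 6.31 ± 0.445 CPM with AMI-5 and 9.70 ± 1.92 CPM with AMI-1. It fell by 0.65 ± 0.13 (adjusted p = 0.00665) and lost the call without AMI-5 replicate 1 (adjusted p = 0.0675). All the list genes said here to have risen or fallen went the same way in 3 of 3 replicate numbers, and each lost its call without the replicate block (adjusted p = 0.9999 against control with AMI-5 and adjusted p = 1 in the other comparisons) and with replicate number 1 left out. Endothelial markers moved with AMI-5 as well. Against AMI-1, 5 of 11 fell and 1 rose, with a median of -0.25, where 3.4% of all genes fell and 1.61% rose. Against control 6 of 11 fell and 1 rose, with a median of -0.23, where 7.45% of all genes fell and 3.42% rose. The marker that rose in both was ESAM, at a mean of only 2.80 CPM with AMI-5. These calls were lost too without the replicate block, where no gene was called. Whether they hold with libraries left out or with the GC correction was not examined. The part of the endothelial markers in the differences of the members and list genes was not tested.

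**Figure D4:**
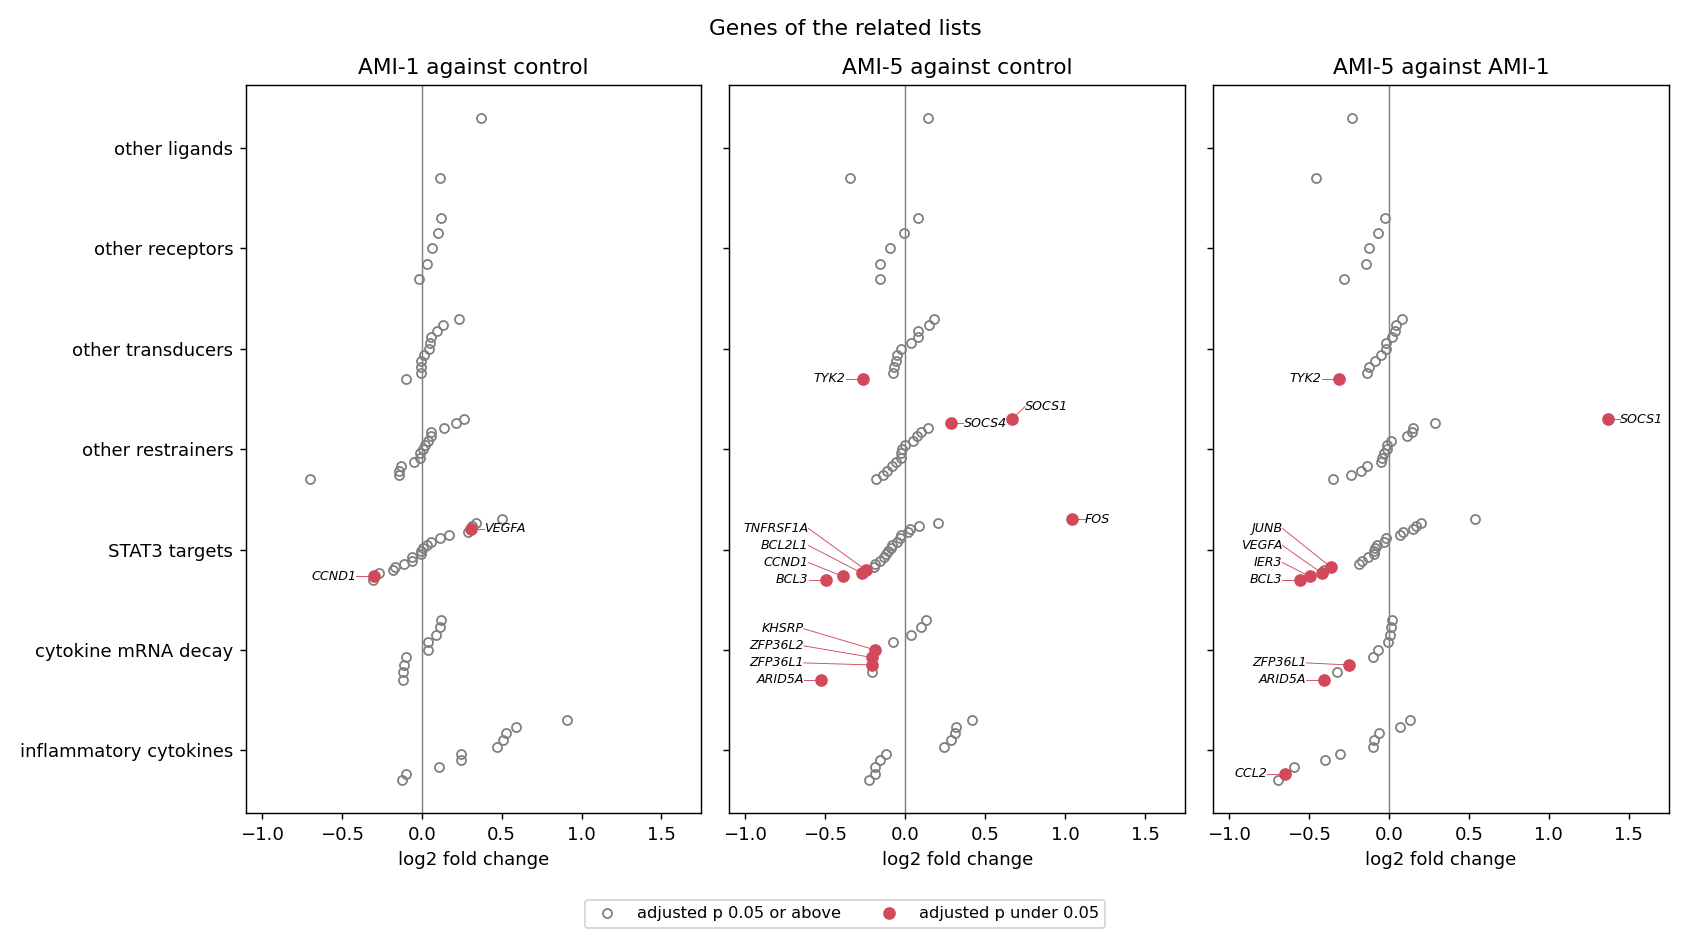
Log2 fold change (horizontal) of each tested gene in 7 lists of related genes (rows) in the 3 comparisons, with filled symbols and names for genes past an adjusted p of 0.05. SOCS1 lies at 0.67 with AMI-5 against control and at 1.37 with AMI-5 against AMI-1, and the called STAT3 targets other than FOS and VEGFA lie below 0.

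The genes whose levels followed LIF most closely were found by correlating log2 CPM, after taking out the mean of each replicate number, over the 9 libraries and 12762 genes with at least 5 CPM on average. They were WDR82P1 (r = 0.988), CDCP1 (r = 0.982), AFF1 (r = 0.981), C9orf3 (r = 0.975) and CDC42SE1 (r = 0.974). All genes were measured in the same libraries of the same treatment groups, so r is a description over 9 points. CDCP1, which encodes a membrane protein phosphorylated by SRC kinases, averaged 116 CPM with AMI-1, 90.2 CPM with AMI-5 and 102 CPM in control, at 0.18 ± 0.06 with AMI-1 and -0.19 ± 0.06 with AMI-5 on the log2 scale. The changes of these 5 genes were smaller than that of LIF, at 0.08 to 0.18 with AMI-1 and -0.19 to -0.06 with AMI-5. Of the members, STAT3 was the nearest to LIF (r = 0.913), at rank 96 among the 12761 other genes. OSMR (r = 0.720) and IL11 (r = 0.657) followed at ranks 942 and 1372, so many genes outside the set lay nearer to LIF. JAK1 ran the other way (r = -0.739), and LIFR had r = -0.052.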

How the data were processed

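The authors deposited raw counts of reads per gene, in a table for AMI-1 and a table for AMI-5. Both hold the 3 control libraries, with the same counts (0 differed). Per the submitters' processing notes BWA, bedtools and the build hg19 were used. Annotation and strand setting: not given in the sources used here. Neither table holds a gene with a mean count under 10. Only genes in both tables were used (18293 of 18385 and 18598).

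Counts were tested with edgeR 4.0.16 in R 4.3.3 (TMM, filterByExpr, which removed 9 genes, quasi-likelihood F test). A single fit held all 9 libraries with replicate number as a block, with Benjamini-Hochberg adjustment over 18284 genes. The block was taken because the libraries are paired by number; columns of the same number start alike, which no label explains. The standard error is the log2 change over the square root of F. The biological coefficient of variation was 5.64%. FOS and its refits were added after its value was seen. Log2 CPM used a prior count of 2. GC content, lengths and chromosomes are of the longest GENCODE transcript, known for 95.7% of genes; promoters are from RefSeq. The GC correction was a lowess curve (span 0.3) per library as an offset in the blocked fit. Other alternatives were no block, DESeq2 size factors, DESeq2 1.42.0, no filter, only the 2 groups compared, and leaving out libraries.

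The 10 members and the lists were chosen with earlier results of these data known. Named genes are the members, at most 4 called genes per list and comparison with the lowest adjusted p, and the 5 genes most like LIF.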

Additional observations from a re-analysis of the deposited data

How the results depend on the processing

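Each estimate was refitted under the alternatives. Counts of members called include LIF where it passed, which is a description only, since its AMI-1 and control counts served to choose it. Without the replicate block 0 members were called in each comparison, against 1 with AMI-1, 1 with AMI-5 and 3 for AMI-5 against AMI-1 with it (LIF included). With the GC correction AMI-5 called 2 members against control and 5 against AMI-1, and over all genes it called 570 for AMI-1 against control and 2037 for AMI-5 against AMI-1, against 77 and 916. With only the 2 groups compared, AMI-5 against control called 6 members (IL11, IL6ST, JAK1, STAT3 and SOCS3, with LIF as a description). Over all genes that fit called 4286, against 1988. In the same setting AMI-5 against AMI-1 called no member other than LIF. DESeq2 called 2 members for AMI-5 against AMI-1 and gave IL6 no adjusted p. The cause was not tested.

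Leaving out a library gave 0 to 2 members called with AMI-1, 0 to 5 with AMI-5 (5 without AMI-1 replicate 3) and 1 to 4 between AMI-5 and AMI-1. Leaving out a replicate number gave 0 to 2, 0 to 3 and 1 to 5 in that order. These counts include LIF where it was called. The LIF estimates kept their sign in all alternatives run, which is a description, since LIF was chosen by its AMI-1 and control counts. Signs turned with the GC correction for LIFR with AMI-1 (-0.034) and AMI-5 (-0.042), IL6ST with AMI-5 (-0.031), and CLCF1 (0.005) and LIFR (-0.008) for AMI-5 against AMI-1; in the fit of the 2 groups alone OSMR with AMI-5 was 0.

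Signs turned when libraries were left out for these estimates near 0: with AMI-1, IL6 (-0.011 to 0.196 without a library, -0.027 to 0.226 without a replicate number), CLCF1 (-0.263 to 0.046 and -0.288 to 0.065 in the same order), LIFR (-0.067 to 0.158 and -0.093 to 0.185), JAK1 (-0.057 to 0.006 and -0.047 to 0.009) and SOCS3 (-0.207 to 0.022 and -0.186 to 0.041); with AMI-5 against control, LIFR (-0.012 to 0.210) and OSMR (-0.038 to 0.053 and -0.029 to 0.044); between AMI-5 and AMI-1, CLCF1 (-0.177 to 0.119 and -0.163 to 0.097), IL6ST (-0.149 to 0.083 and -0.128 to 0.070) and LIFR (-0.030 to 0.161). Depth limits IL6, on 28 to 67 reads per library.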

Other observations

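CXCL2, a neutrophil chemokine of the inflammatory list, was counted only in the table for AMI-5, where replicates 1, 2 and 3 held 15, 16 and 8 reads with AMI-5 and 6, 10 and 9 reads in control. It was not tested, and no AMI-1 value of it was analysed here.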
